A study of Mus musculus with 6 samples.

Results

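The retinal vasculature of WT and Wfs1-KO mice was examined through 37 genes of VEGF and angiopoietin signaling, endothelial junctions, the blood-retina barrier, the norrin pathway and pericytes. The genes were taken by symbol from the count table of 55376 genes, where all 37 were found, and all 37 passed the filter on low counts that left 18547 genes for testing. The mice were 240 days old, with 3 retinas of wild type genotype and 3 of genotype Wfs1-/-, and the strain is labelled C57x129, while the methods name a C57BL/6 J background. The Wfs1-/- animals carry a targeted deletion of exon 8 of Wfs1, the gene of the endoplasmic reticulum protein wolframin, in all cells, so the vascular cells carry it as well as neurons and glia. RNA was sequenced from each retina with vessels and neural tissue together, and the 3 retinas of a genotype came from different mice. The comparison asked whether vascular transcripts differ between genotypes at this age.

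In the retina, vascular endothelial growth factor (VEGF) ligands made by glia and neurons bind receptor tyrosine kinases on endothelial cells. Angiopoietins act on a second receptor family, the Tie receptors, and both pathways keep vessels alive and set their permeability. Norrin, secreted by Müller glia, binds frizzled-4 on endothelial cells and, through LRP5, TSPAN12 and β-catenin, maintains the blood-retina barrier, which is built from claudin-5, occludin and ZO-1 at tight junctions and from transporters in the endothelial membrane. Endothelial PDGF-B recruits pericytes, the mural cells that wrap retinal capillaries at high density. In RNA from a whole retina, fewer cells of a type and less RNA per cell cannot be told apart.

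No vascular gene passed the test between genotypes after adjustment for multiple testing. The 2 genes with the smallest p were both higher in Wfs1-KO retinas and both code for secreted or surface proteins of endothelial cells, namely von Willebrand factor (Vwf) and plasmalemma vesicle associated protein (Plvap). The levels of the VEGF ligands and receptors and of the norrin components other than the receptor Fzd4 overlapped between genotypes. A single mutant retina, Wfs1-KO replicate 2, stood far from the other 5 for most of these genes, and the results that rest on it are also given without it.

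No promoter window was available for Vwf or Plvap. Promoter sequence is shown for 4 other genes, none of which had an unadjusted p under 0.05 with edgeR. These are the paired VEGF receptors Flt1 and Kdr, which lay at opposite ends of the range in Wfs1-KO replicate 2, the tight junction gene Cldn5, the junction gene furthest above its WT mean in that retina, and the norrin receptor Fzd4, whose levels did not overlap between genotypes. The sequences are RefSeq windows of build GRCm38.p6 and run 5′ to 3′ on the strand of the gene, ending at the base before the annotated start of the gene. Capitals mark GGAAGT, a core with flank bound by ETS factors such as ERG, or its complement ACTTCC where the match is on the other strand. Flt1 is shown from chr5:147726012-147726261 (minus strand), Kdr from chr5:75978459-75978705 (minus strand), Cldn5 from chr16:18776597-18776846 (plus strand) and Fzd4 from chr7:89404116-89404354 (plus strand).
Flt1: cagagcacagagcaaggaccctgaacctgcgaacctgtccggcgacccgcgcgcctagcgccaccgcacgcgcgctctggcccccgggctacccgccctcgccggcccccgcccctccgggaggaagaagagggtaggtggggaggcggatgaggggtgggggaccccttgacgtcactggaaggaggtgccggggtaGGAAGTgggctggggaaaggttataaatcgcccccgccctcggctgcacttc
Kdr: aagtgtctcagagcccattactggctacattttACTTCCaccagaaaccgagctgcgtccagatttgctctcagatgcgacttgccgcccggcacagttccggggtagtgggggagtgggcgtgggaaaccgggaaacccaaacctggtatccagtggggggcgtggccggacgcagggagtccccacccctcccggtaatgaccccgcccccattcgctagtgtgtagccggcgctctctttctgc
Cldn5: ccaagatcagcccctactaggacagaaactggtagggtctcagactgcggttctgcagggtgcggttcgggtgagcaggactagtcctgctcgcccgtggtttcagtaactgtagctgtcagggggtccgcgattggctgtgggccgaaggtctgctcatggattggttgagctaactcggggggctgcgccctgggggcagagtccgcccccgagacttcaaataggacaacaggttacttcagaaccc
Fzd4: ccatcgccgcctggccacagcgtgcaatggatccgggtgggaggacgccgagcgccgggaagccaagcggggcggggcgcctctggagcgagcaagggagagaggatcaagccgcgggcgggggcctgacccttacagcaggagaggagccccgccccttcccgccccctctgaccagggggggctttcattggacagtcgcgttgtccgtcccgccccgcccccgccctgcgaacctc

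Promoter windows were available for 25 of the 37 genes, 33 windows in all. Both strands of the 250 bases before each start were searched for 3 short motifs. GGAAGT occurred in 6 of the 33 windows (18.2%), those of Eng, Flt1, Kdr, Lef1, Ndp and Tie1, against 19.7% of all 32851 windows. The hypoxia response core ACGTG occurred in 4 windows (12.1%), those of Lef1, Mfsd2a, Notch3 and Vegfa, against 16.6% of all windows. The Lef1 and Vegfa windows with a match lie inside these genes, at internal starts. The windows before the annotated gene starts of Lef1 and Vegfa held none of the motifs. The GGAAGT match of Tie1 lies past the annotated start of that gene. The TCF/LEF motif CTTTGAT occurred in 0 of the 33 windows, against 3.21% of all windows. These counts describe the letters in the windows and carry no information on binding.

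The libraries held 17916885 to 101334381 counts. Wfs1 checked the labels, at 64.9, 61.4 and 69.9 CPM (reads of the gene over the TMM-adjusted depth of the library) in WT replicates 1, 2 and 3 and 9.63, 0.900 and 11.5 CPM in Wfs1-KO replicates 1, 2 and 3. The tissue was also as labelled, since the 14 markers of photoreceptors, Müller glia and other retinal neurons were all detected. Their sum was lowest in Wfs1-KO replicate 2, at 49059 CPM, and was 65379 to 73619 CPM in the other 5 retinas. Wfs1-KO replicate 2 had a mean Pearson correlation to the other 5 retinas of 0.918 across the tested genes, while each other retina had 0.962 to 0.971. Its summed levels were 480.5 CPM for 7 blood cell genes (12.3 to 41.3 in the other 5 retinas), 424 CPM for 14 genes of the retinal pigment epithelium (45.5 to 127), 189 CPM for 12 macrophage and microglia genes (31.3 to 44.9) and 161 CPM for 10 fibroblast genes of sclera and connective tissue (42.7 to 67.9). WT replicate 3 had 4 counts of Xist and 1137 of Ddx3y, while the other 5 retinas had at least 10583 of Xist and at most 2 of Ddx3y, so 1 WT retina differed in sex from the rest.

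Compared per length, as CPM per kilobase of exon, the 37 genes spanned from 38.9 ± 7.24 for Vegfb to 0.313 ± 0.0382 for Lef1 in WT (SD, n = 3). The ligand Vegfb was followed by Vegfa at 36.6 ± 2.15, by the main VEGF receptor Kdr (VEGFR2) at 24.3 ± 5.15, by Tjp1, which codes for ZO-1, at 17.4 ± 4.49, and by Flt1 (VEGFR1) at 9.37 ± 1.64. Claudin-5 (Cldn5) stood at 8.44 ± 1.85, the endothelial adhesion molecule Esam at 7.88 ± 0.774, the pericyte marker Rgs5 at 7.69 ± 1.42 and norrin (Ndp) at 5.46 ± 0.39. At the other end, 11 genes were below 1 on this scale, among them Pgf at 0.410 ± 0.0964 and Angpt1 at 0.358 ± 0.0430.

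In this order the ranges of the 3 WT retinas overlapped for 31 of the 36 pairs of neighbours. The 5 pairs without overlap were Vegfa above Kdr, Tjp1 above Flt1, Rgs5 above Ndp, Fzd4 above Slco1a4, and Slco1a4 above Pecam1. Several of the highest genes are not restricted to vessels, since Vegfa is made by Müller glia and neurons, and Tjp1 codes for a junction protein of epithelia and glia as well as endothelium. Kdr and Flt1 are also known in retinal neurons. The coefficient of variation between WT retinas had a median of 15.8% over the 37 genes and ranged from 5.82% for Tek to 36.1% for Vegfc. Between Wfs1-KO retinas the median was 28.4%, and the coefficient was above the WT value in 34 of the 37 genes. The same share over all tested genes was not computed. The mutant values include Wfs1-KO replicate 2, which was the highest or lowest of the 6 retinas for 33 of the 37 genes. It was the highest for 38.4% and the lowest for 36.8% of all tested genes. The common dispersion over the tested genes was 0.128 on all retinas and 0.0322 without it.

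**Figure D1:**
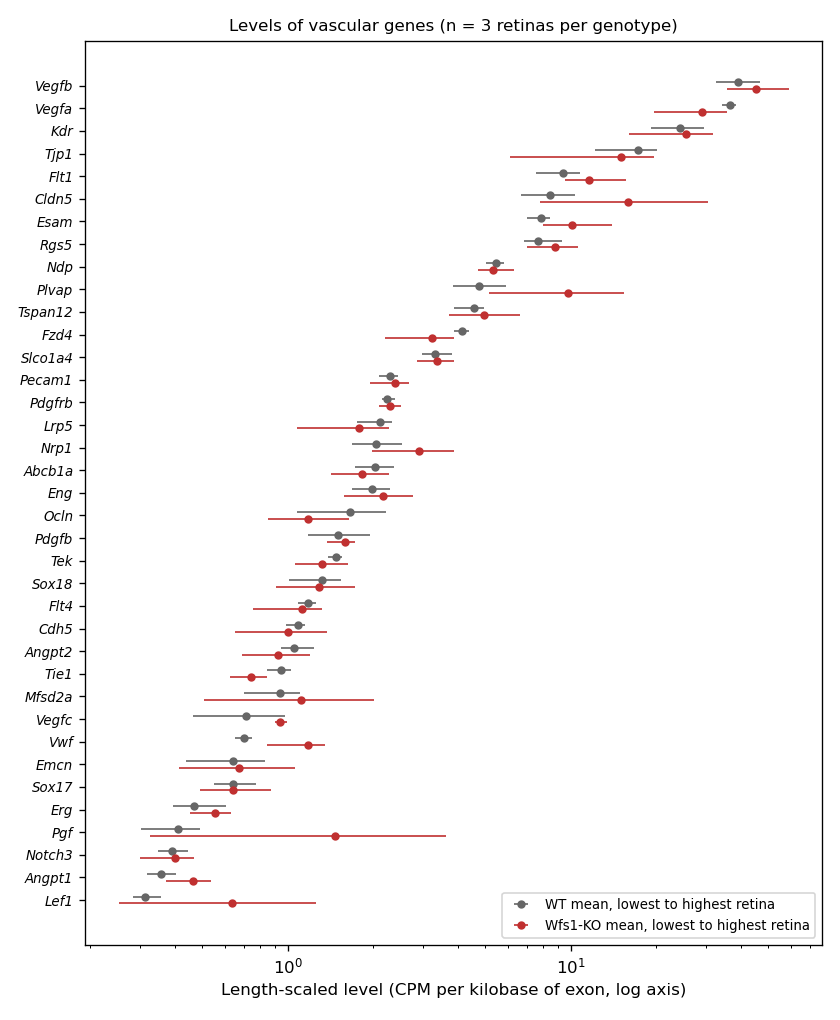
Level of each vascular gene in CPM per kilobase of exon, on a log axis, with the mean (dot) and the lowest to highest retina (line) of 3 WT (grey) and 3 Wfs1-KO retinas (red). WT means run from 38.9 for Vegfb to 0.313 for Lef1, and the mutant lines are the longest for Pgf, Lef1, Cldn5, Mfsd2a and Tjp1.

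The test of genotype was the quasi-likelihood test of edgeR, adjusted by the Benjamini-Hochberg method over all 18547 genes. At an adjusted p under 0.05, 0 of the 37 vascular genes passed, and 0.0108% of all tested genes did. The adjusted p-values of the 37 genes were between 0.979 and 0.999. With DESeq2 0 of the 37 passed as well, against 0.28% of all genes, and their smallest adjusted p was 0.658. Without Wfs1-KO replicate 2 the count was also 0 with edgeR, against 0.125% of all genes and with a smallest adjusted p of 0.751, and 0 with DESeq2, against 0.49% of all genes and with a smallest adjusted p of 0.454.

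At an unadjusted p under 0.05, 2 of the 37 genes were higher in Wfs1-KO retinas (Vwf and Plvap), against 2.24% of all tested genes, and 0 were lower, against 0.566%. Without Wfs1-KO replicate 2 there was 1 higher gene (Vwf), against 2.8% of all genes, and 0 lower, against 2.39%. With DESeq2 on all 6 retinas 3 genes were higher (Vwf, Plvap and Pgf), against 3.16% of all genes, and 0 lower, against 0.863%. The levels of the genotypes did not overlap for 1 gene that was higher in the mutant (Vwf), where 5.01% of all tested genes behaved so, and for 2 that were lower (Tie1 and Fzd4), where 3.94% did. Scaled after a filter of at least 10 counts in every retina, Tie1 and Fzd4 overlapped, and with no filter Tie1 did.

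The median log2 fold change of Wfs1-KO over WT (log2FC) was 0.07 over the 37 genes and 0.02 over all tested genes. The fold changes ranged from -0.48 for Ocln to 1.85 for Pgf, with 23 above and 14 below 0. Without Wfs1-KO replicate 2 the median was 0.02, against -0.0004 over all tested genes, and the range narrowed to between -0.50 for Mfsd2a and 0.64 for Vwf. The 95% interval of the fold change lay within 2-fold in either direction for 24 of the 37 genes, and for 52.3% of all tested genes. Without Wfs1-KO replicate 2 it did so for 30 genes, and for 69.3% of all tested genes.

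**Figure D2:**
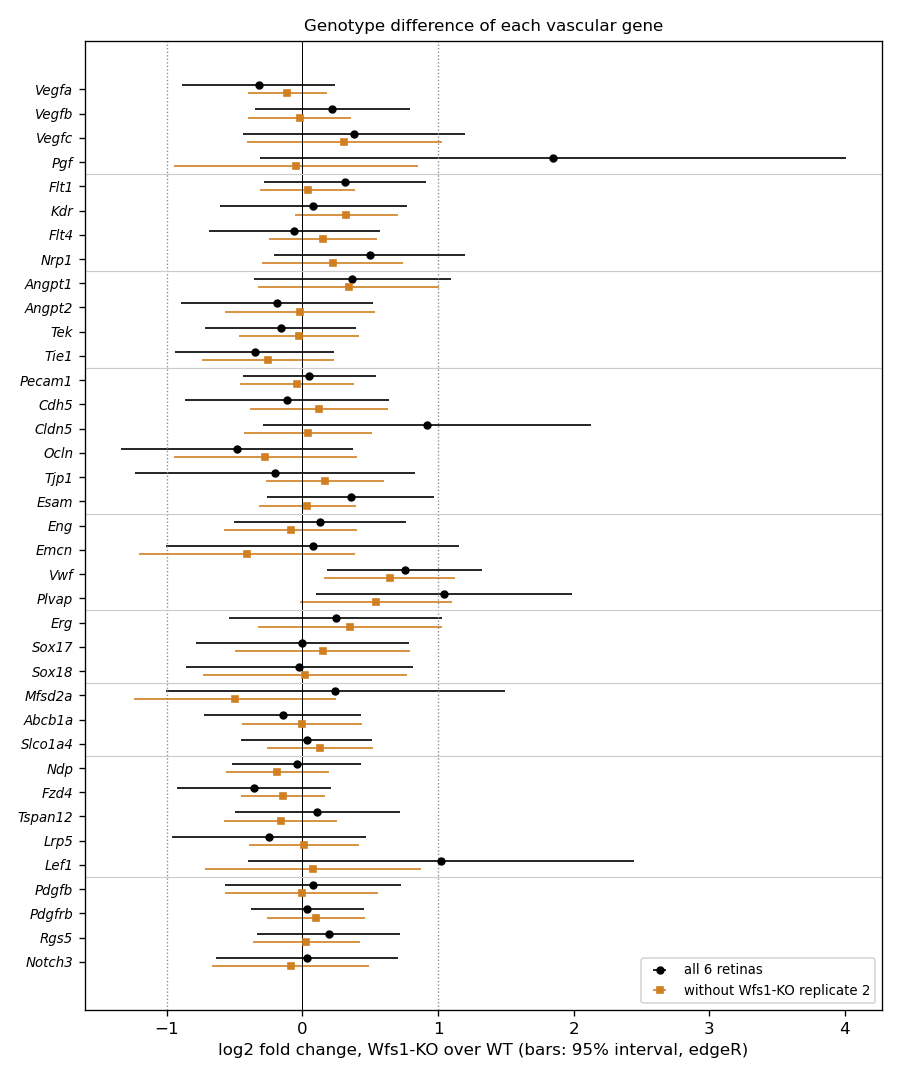
Log2 fold change of Wfs1-KO over WT for each vascular gene with its 95% interval from edgeR, on all 6 retinas (black) and without Wfs1-KO replicate 2 (orange), grouped by role. Dotted lines mark a 2-fold difference, and the interval excludes 0 on all 6 retinas for Vwf and Plvap and without that retina for Vwf.

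Among the endothelial surface and secreted proteins, Vwf, the large glycoprotein that endothelial cells store in Weibel-Palade bodies and release for platelet adhesion, is encoded on mm10 chromosome 6 between 125546774 and 125686679. It had 6.84, 6.37 and 7.32 CPM in WT replicates 1, 2 and 3 and 13.1, 13.3 and 8.24 CPM in Wfs1-KO replicates 1, 2 and 3. Every mutant retina was above every WT retina, replicate 3 by the least. The log2FC of Vwf was 0.75 (standard error 0.24, unadjusted p = 0.0170 and adjusted p = 0.979 from edgeR), a 1.69-fold difference with a 95% interval of 1.13 to 2.51. It was 0.64 without Wfs1-KO replicate 2 (unadjusted p = 0.0141 from edgeR) and 0.78 without WT replicate 3, the retina of the other sex (unadjusted p = 0.0413 from edgeR).

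Plvap, which forms the diaphragms of endothelial fenestrae and is usual in the choroidal capillaries rather than in vessels with a tight barrier, is encoded on chromosome 8 between 71497765 and 71511752. It had 11.7, 7.61 and 8.91 CPM in the WT retinas and 17.3, 30.8 and 10.3 CPM in the mutant retinas. Wfs1-KO replicates 1 and 2 were above every WT retina, and replicate 3 was inside the WT range. The log2FC of Plvap was 1.04 (standard error 0.40, unadjusted p = 0.0342 and adjusted p = 0.979 from edgeR), a 2.06-fold difference with an interval of 1.07 to 3.96. Without Wfs1-KO replicate 2 it was 0.54 (unadjusted p = 0.0557 from edgeR), and without WT replicate 3 it was 0.98 (unadjusted p = 0.095 from edgeR). The summed genes of the pigment epithelium, a neighbour of the choroid, were at 88.3 to 127 CPM in WT. They were at 72.9, 424 and 45.5 CPM in Wfs1-KO replicates 1, 2 and 3. The part of choroidal tissue in the level of Plvap was not tested.

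The other 2 genes of this group had smaller differences. Endoglin (Eng), a TGF-β co-receptor, had 7.10 ± 1.09 CPM in the WT and 7.77 ± 2.15 CPM in the mutant retinas (mean ± SD of 3 retinas each). Endomucin (Emcn), a sialoglycoprotein of venous and capillary endothelium, had 1.66 ± 0.511 and 1.74 ± 0.888 CPM, with a log2FC of 0.07 that was -0.41 without Wfs1-KO replicate 2.

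**Figure D3:**
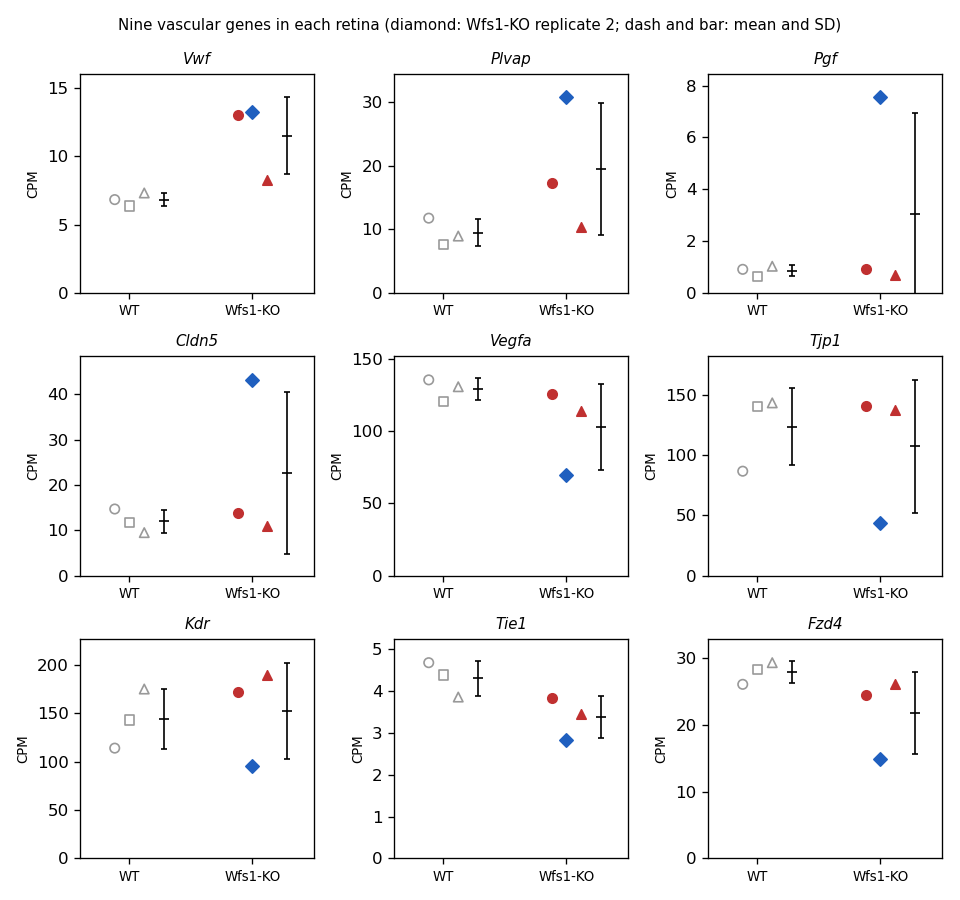
CPM of 9 vascular genes in each of the 3 WT (open grey) and 3 Wfs1-KO retinas (filled), with the mean and SD of each genotype, and with Wfs1-KO replicate 2 as a blue diamond. For Pgf the SD of the mutant retinas exceeds their mean, so its bar runs below the axis. Only Vwf among these genes has all mutant points above the WT points, Tie1 and Fzd4 have them below by less than the width of a symbol, and the diamond is the extreme point for each of the 9 genes.

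Among the VEGF ligands, Vegfb, which binds VEGFR1, had 60.1, 41.9 and 47.6 CPM in the WT retinas and 53.2, 75.5 and 45.6 CPM in the mutant retinas. Apart from Wfs1-KO replicate 2, the mutant levels were inside the WT range. Vegfb had a log2FC of 0.22 (standard error 0.24) and -0.02 without that retina. Vegfa, the main ligand of VEGFR2 and a target of hypoxia signaling, had 135, 121 and 131 CPM in the WT and 126, 69.4 and 114 CPM in the mutant retinas. Wfs1-KO replicate 2 was the lowest retina, replicate 3 was also below WT, and replicate 1 was inside the WT range. The log2FC of Vegfa was -0.32 (95% interval -0.89 to 0.24), and -0.11 (95% interval -0.40 to 0.18) without replicate 2.

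Placental growth factor (Pgf), a further ligand of VEGFR1, showed the largest fold change of the 37 genes, and it came from a single retina. It had 0.903, 0.630 and 1.02 CPM in the WT and 0.932, 7.55 and 0.681 CPM in the mutant retinas. Wfs1-KO replicate 2, with 319 counts, was at 9.37 times the mean of the other 2 mutant retinas, both of which were inside the WT range. The log2FC of 1.85 (standard error 0.92) became -0.05 without that retina. Vegfc, the ligand of the lymphatic receptor VEGFR3, had 1.75 ± 0.631 CPM in the WT and 2.30 ± 0.122 CPM in the mutant retinas (mean ± SD of 3 retinas each). Vegfc had a log2FC of 0.38, and 0.31 without Wfs1-KO replicate 2.

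Among the receptors, Kdr had 114, 143 and 175 CPM in the WT and 172, 95.3 and 189 CPM in the mutant retinas. Wfs1-KO replicate 2 was the lowest of the 6 retinas, and replicate 3 the highest. Between genotypes the log2FC was 0.08 (standard error 0.30) on all retinas and 0.32 (standard error 0.17, unadjusted p = 0.0864 from edgeR) without replicate 2. Flt1, the decoy receptor for VEGF-A, had 83.1, 107 and 118 CPM in the WT and 107, 172 and 104 CPM in the mutant retinas. Here Wfs1-KO replicate 2 was the highest retina and the other mutant retinas were inside the WT range, with log2FCs of 0.31 and 0.04. The promoter stretches of both receptors, printed above, hold 1 match to GGAAGT each, which carries no information on binding. The table gives 1 value per gene, so membrane and soluble forms of VEGFR1 were not separated.

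Flt4 (VEGFR3) had 7.36 ± 0.541 CPM in the WT and 7.05 ± 2.004 CPM in the mutant retinas, with log2FCs of -0.06 and, without Wfs1-KO replicate 2, 0.15. Neuropilin-1 (Nrp1), a co-receptor for VEGF and semaphorins, had 7.40 ± 1.55 and 10.5 ± 3.42 CPM (mean ± SD of 3 retinas each). For Nrp1 the log2FC of 0.50 (95% interval -0.21 to 1.20) became 0.22 without that retina.

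Among the angiopoietins and Tie receptors, Tek (TIE2), the receptor of both angiopoietins, had the highest level per length, with 6.52, 6.998 and 7.32 CPM in the WT and 7.70, 4.996 and 5.90 CPM in the mutant retinas. The mutant retinas lay on both sides of the WT range. The fold change of Tek was -0.16 on the log2 scale (standard error 0.24), and -0.03 without Wfs1-KO replicate 2. Tie1, an orphan receptor that pairs with TIE2, had 4.68, 4.39 and 3.86 CPM in the WT and 3.84, 2.84 and 3.45 CPM in the mutant retinas. All mutant retinas were below all WT retinas, but Wfs1-KO replicate 1 and WT replicate 3 were nearly equal. The log2FC of Tie1 was -0.35 (standard error 0.25, unadjusted p = 0.201 from edgeR), and -0.25 (standard error 0.22) without replicate 2. The ligands Angpt1, made by pericytes and an agonist of TIE2, and Angpt2, its context-dependent antagonist, had log2FCs of 0.37 and -0.19 (standard errors 0.31 and 0.30). For Angpt1, 17.3% of the exon bases overlap another gene on the opposite strand, so its counts are uncertain.

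The junction genes varied most in Wfs1-KO replicate 2 and in opposite directions. Tjp1, with the highest level per length of the group, had 86.6, 140.5 and 143 CPM in the WT and 141, 43.5 and 138 CPM in the mutant retinas. WT replicate 1 and Wfs1-KO replicate 2 were low and the other 4 retinas were between 138 and 143 CPM. Tjp1 had a log2FC of -0.20 (95% interval -1.24 to 0.83) and 0.17 (95% interval -0.27 to 0.60) without that mutant retina. Claudin-5, the main sealing claudin of brain and retinal endothelium, had 14.7, 11.7 and 9.48 CPM in the WT and 13.8, 43.2 and 11.01 CPM in the mutant retinas. The other 2 mutant retinas were inside the WT range, and the log2FC of Cldn5 moved from 0.92 (standard error 0.52) to 0.04 (standard error 0.21) when replicate 2 was left out.

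Occludin (Ocln) had the lowest fold change of the 37 genes, -0.48 on the log2 scale (standard error 0.37), with 7.03 ± 2.43 CPM in the WT and 5.002 ± 1.76 CPM in the mutant retinas (mean ± SD of 3 retinas each). The mutant retinas ranged from 3.60 to 6.98 CPM and the WT retinas from 4.56 to 9.42 CPM, so the genotypes overlapped over much of the range. Adhesion proteins of the endothelial surface differed less. PECAM-1 (Pecam1) had 9.51 ± 0.740 and 9.87 ± 1.59 CPM, VE-cadherin (Cdh5) 4.35 ± 0.352 and 4.01 ± 1.46 CPM, and Esam 14.7 ± 1.44 and 18.8 ± 6.34 CPM, in WT and mutant retinas. Without Wfs1-KO replicate 2 their log2FCs were -0.04, 0.12 and 0.04.

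None of the endothelial transcription factors passed the test in either direction. Sox18, which acts in vessel identity with Sox17, had 2.499, 1.64 and 2.27 CPM in the WT and 2.81, 1.99 and 1.48 CPM in the mutant retinas. The mutant values lay on both sides of the WT values. For Sox18 the log2FC was -0.02 (standard error 0.36). Sox17, a driver of arterial identity, and Erg, the ETS factor that maintains endothelial gene expression, had log2FCs of -0.0013 and 0.24 (standard errors 0.33 and 0.34). Sox17 and Sox18 had 2.62 and 2.14 CPM on average in WT, and their intervals of -0.79 to 0.78 and -0.86 to 0.81 on the log2 scale reach to a difference of nearly 2-fold. The interval of Erg was wider on the upper side, -0.54 to 1.03, and its log2FC was 0.35 without Wfs1-KO replicate 2.

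Of the barrier transporters, Slco1a4, an organic anion transporter of barrier endothelium, had 11.4, 14.6 and 11.98 CPM in the WT and 14.8, 10.99 and 13.1 CPM in the mutant retinas. The genotypes overlapped over nearly the whole range, and the log2FC was 0.03 (standard error 0.21). Abcb1a, which codes for the efflux pump P-glycoprotein, had a log2FC of -0.15 (standard error 0.25), and -0.0014 without Wfs1-KO replicate 2. Reads of Slco1a4 and Abcb1a may be shared with close relatives (other Slco1a genes and Abcb1b), so their values are uncertain to that degree. Mfsd2a, a lipid transporter that limits transcytosis at the barrier, had 2.03 ± 0.456 CPM in the WT and 1.73, 4.36 and 1.09 CPM in the mutant retinas. For Mfsd2a the log2FC was 0.24 on all retinas and -0.50 (standard error 0.34, unadjusted p = 0.17 from edgeR) without Wfs1-KO replicate 2.

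In the norrin pathway, the ligand Ndp, on chromosome X, had 9.76, 10.8 and 11.2 CPM in the WT and 9.51, 12.2 and 9.13 CPM in the mutant retinas. Wfs1-KO replicate 2 was the highest retina, and the other mutant retinas were below WT. The log2FC of Ndp was -0.04 (95% interval -0.52 to 0.44), and -0.18 (95% interval -0.56 to 0.19) without that retina. Its receptor Fzd4 had 26.04, 28.2 and 29.3 CPM in the WT and 24.5, 14.8 and 26.04 CPM in the mutant retinas. No mutant retina reached above the lowest WT retina, but Wfs1-KO replicate 3 and WT replicate 1 were nearly equal. The log2FC of Fzd4 was -0.35 (standard error 0.24, unadjusted p = 0.185 from edgeR) and -0.15 (standard error 0.14) without replicate 2, and its promoter, printed above, held none of the 3 motifs.

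The co-receptor Lrp5 and the norrin-specific amplifier Tspan12 had log2FCs of -0.24 and 0.11 (standard errors 0.31 and 0.26), and 0.01 and -0.16 without Wfs1-KO replicate 2. Lef1, a nuclear partner of β-catenin and itself a target of the pathway, had 0.994, 1.05 and 1.25 CPM in the WT and 1.39, 4.40 and 0.886 CPM in the mutant retinas. For Lef1 the log2FC of 1.02 (standard error 0.61) became 0.08 without Wfs1-KO replicate 2. For Lef1, 34.5% of the exon bases overlap an antisense gene, and the library kit does not mark strand, so its counts are uncertain.

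The pericyte genes had the narrowest spread of fold changes, from 0.03 for Notch3 to 0.19 for Rgs5 on the log2 scale. Rgs5, a regulator of G protein signaling in pericytes, had 31.4, 42.4 and 31.1 CPM in the WT and 39.8, 48.3 and 31.9 CPM in the mutant retinas. Wfs1-KO replicate 2 was the highest retina and the other mutant retinas were inside the WT range. The difference of Rgs5 was a log2FC of 0.19 (95% interval -0.34 to 0.72). Pdgfrb, the receptor through which pericytes are recruited, had 12.3 ± 0.746 CPM in the WT and 12.6 ± 1.16 CPM in the mutant retinas (mean ± SD of 3 retinas each), a log2FC of 0.04 with a 95% interval of -0.38 to 0.46. Its endothelial ligand Pdgfb had 4.42 ± 1.18 and 4.69 ± 0.552 CPM, and Notch3, a receptor of mural cells, 3.13 ± 0.401 and 3.19 ± 0.699 CPM. For all 4 genes the interval lay within 2-fold in either direction, with and without Wfs1-KO replicate 2.

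**Figure D4:**
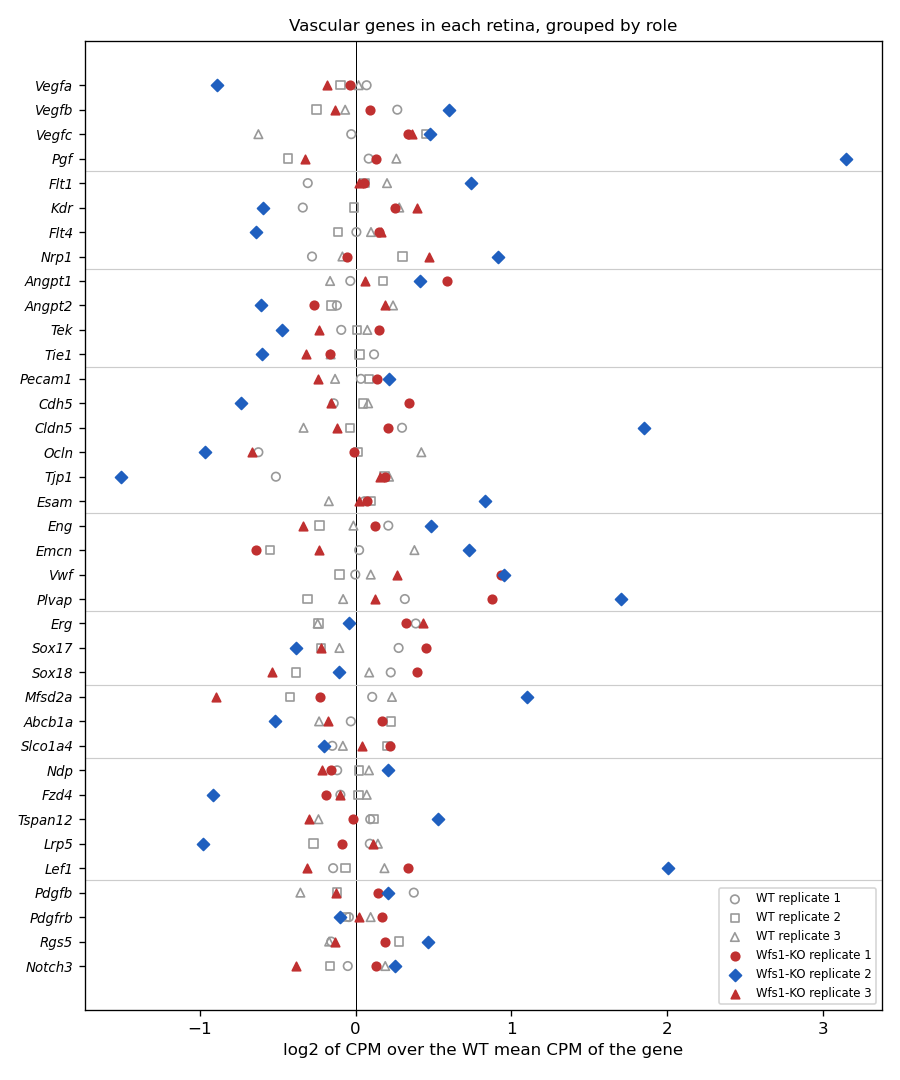
Each vascular gene in each retina as the log2 of its CPM over the mean WT CPM of that gene, grouped by role, with WT retinas as open grey symbols, Wfs1-KO replicates 1 and 3 in red and replicate 2 as a blue diamond. The diamonds lie at one end of the 6 retinas for 33 of the 37 genes and reach furthest for Pgf, Lef1, Cldn5 and Plvap on the right and Tjp1 on the left.

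Wfs1-KO replicate 2 was the highest of the 6 retinas for 18 of the 37 genes, where it was so for 38.4% of all tested genes, and the lowest for 15, where it was so for 36.8% of all tested genes. All 4 endothelial surface and secreted genes were highest in this retina, and of the angiopoietin and Tie genes 3 were lowest and 0 highest. VEGF ligands, junction proteins and norrin components were found at both ends, as with Pgf high and Vegfa low, Cldn5 high and Tjp1 low, and Lef1 high and Lrp5 low. The 4 genes inside the range were Pdgfb, Sox18, Erg and Angpt1. Across the 37 genes, exon length and the deviation of this retina had a Spearman rho of -0.52, and across the 18547 tested genes -0.40. These are descriptions across genes of 1 library, which share its RNA and depth. The shortest gene, Vegfb (1281 bases), was high and Tjp1 (7109 bases) low, while Flt1, the longest (10961 bases), was high. The part of transcript length in these values was not tested.

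The median deviation of the 37 genes from their WT mean was 0.22 on the log2 scale in Wfs1-KO replicate 2, 0.15 in replicate 1 and -0.11 in replicate 3, with -0.01 to 0.07 in the WT retinas. In the same retina the median deviation was 3.83 for blood cell genes, 3.30 for fibroblast genes, 2.04 for macrophage and microglia genes, 1.68 for lens genes and 1.36 for pigment epithelium genes, over the tested genes of each list. Of the defining blood genes, Hba-a1 was at 180 CPM in Wfs1-KO replicate 2 and at 3.07 to 9.35 CPM elsewhere. Of the lens genes, Crygb, Crygc and Cryge had 0 counts in all retinas. In Wfs1-KO replicate 1, the lens genes deviated by 1.06 and the other lists by -0.53 to 0.35. The part of these other tissues in the vascular values was not tested.

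**Figure D5:**
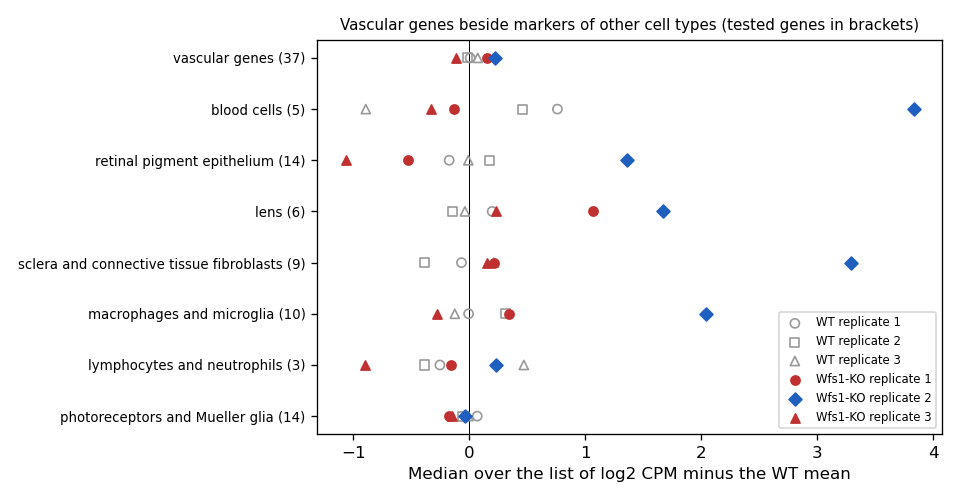
Median over each gene list of the log2 CPM minus the WT mean of the gene, for each retina, with the vascular genes at the top and lists of other cell types below. The medians of the vascular genes lie between -0.11 and 0.22 in all 6 retinas. Wfs1-KO replicate 2 (diamond) reaches medians of 3.83 for blood cell genes and 3.30 for fibroblast genes. In that retina 18 vascular genes were highest and 15 lowest, directions that a median does not show.

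Further genes of the same pathways were read from lists of genes outside the 37. Across them 0 genes passed the adjusted threshold with edgeR or with DESeq2 on all retinas, against 0.0108% and 0.28% of all tested genes. The median log2FC of 33 tested genes of VEGF, angiopoietin and Notch signaling was 0.09. At an unadjusted p under 0.05, 1 was higher and 0 were lower, against 2.24% and 0.566% of all tested genes. The higher gene was Id3, a nuclear target of BMP signaling in endothelium, with 9.08 to 12.5 CPM in the WT and 12.6 to 22.1 CPM in the mutant retinas (log2FC 0.70, unadjusted p = 0.0301 from edgeR). The log2FC of Id3 was 0.46 without Wfs1-KO replicate 2. In that fit 2 genes of the list were higher (Id3 and Plxnd1) and 1 lower (Thbs1) at an unadjusted p under 0.05. Of all tested genes 2.8% were higher and 2.39% lower. Of 35 tested endothelial and barrier genes, 0 passed in either direction with edgeR at an unadjusted p under 0.05. With DESeq2 1 was higher, against 3.16% of all tested genes. The median log2FC of the 35 genes was 0.11.

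One gene of that list, singled out after its values were seen, changed sides with Wfs1-KO replicate 2. Claudin-1 (Cldn1), a claudin of epithelial tight junctions, had 1.35, 3.03 and 2.84 CPM in the WT and 0.932, 6.30 and 0.500 CPM in the mutant retinas. Wfs1-KO replicate 2 was the highest retina and the other 2 mutant retinas were below all WT retinas. The log2FC of Cldn1 was 0.10 on all retinas and -1.69 (standard error 0.44) without replicate 2, with an adjusted p of 0.416 from edgeR and 0.035 from DESeq2. The pigment epithelium genes lay in the same order, with median deviations of -0.53, 1.36 and -1.07 in Wfs1-KO replicates 1, 2 and 3 and -0.17 to 0.18 in WT. Their part in the level of Cldn1 was not tested.

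The median log2FC of 24 tested norrin and β-catenin genes was 0.02. At an unadjusted p under 0.05, 1 was higher and 0 were lower, against 2.24% and 0.566% of all tested genes. The gene was Nkd1, an inhibitor of the pathway that is itself induced by it, with 30.4, 24.8 and 29.5 CPM in the WT and 54.3, 67.5 and 27.8 CPM in the mutant retinas (log2FC 0.82, unadjusted p = 0.036 from edgeR). Wfs1-KO replicate 3 was inside the WT range. Without replicate 2 the fold change was 0.54 (unadjusted p = 0.0459 from edgeR).

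The median log2FC of 33 tested pericyte and smooth muscle genes was 0.19. At an unadjusted p under 0.05, 2 were higher and 0 lower, against 2.24% and 0.566% of all tested genes. The adhesion molecule Mcam (CD146), found on pericytes and endothelium, had 4.02, 5.17 and 4.09 CPM in the WT and 6.70, 7.53 and 6.06 CPM in the mutant retinas, with no overlap between genotypes. Mcam had a log2FC of 0.61 (standard error 0.23, unadjusted p = 0.0321 from edgeR) and 0.52 (standard error 0.21) without Wfs1-KO replicate 2. Atp13a5, a transporter marking brain pericytes, was near the limit of detection, with 0.114 to 0.181 CPM in the WT and 0.284 to 0.500 CPM in the mutant retinas, where 3 counts correspond to 0.0291 to 0.170 CPM.

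Of 27 tested hypoxia-inducible factor genes and targets, 1 was higher and 1 lower at an unadjusted p under 0.05. Of all tested genes 2.24% were higher and 0.566% lower. The lower gene of this list was Igfbp3. The median log2FC was -0.14, against 0.02 over all tested genes. Without Wfs1-KO replicate 2 it was -0.11, against -0.0004 over all tested genes. Igfbp3, a binding protein of insulin-like growth factors, had 2.98, 2.86 and 2.27 CPM in the WT and 1.28, 1.61 and 1.27 CPM in the mutant retinas. All mutant retinas were below all WT retinas, the log2FC was -0.97 (standard error 0.30, unadjusted p = 0.0127 from edgeR) and -1.10 (unadjusted p = 0.00259 from edgeR) without Wfs1-KO replicate 2. The adjusted p with DESeq2 was 0.201.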

How the data were processed

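RNA of 3 WT and 3 Wfs1-KO retinas, all from different mice, was sequenced with a TruSeq RNA kit, which does not mark strand. By the submitters' processing notes, reads were trimmed with Trimmomatic 0.39, aligned to mm10 with STAR 2.5.3a and counted over exons per gene with featureCounts 1.6.4. The methods name other versions of Trimmomatic and STAR. The deposited table holds raw counts without normalization. The labels name Trizol for RNA extraction and the methods name a column kit. The columns are headed by tissue, a letter and a number. C was read as control (WT) and W as the Wfs1 mutant, which the level of Wfs1 checks, and 2 further columns, which no listed sample matches, were left out.

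The genotype effect was fitted to the counts in edgeR 4.0.16 with R 4.3.3 (TMM, filterByExpr, quasi-likelihood test on genotype, Benjamini-Hochberg adjustment over 18547 of 55376 genes). CPM are counts over the TMM-scaled library size, and levels between genes were divided by exon length. A level of 3 counts equals 0.0291 to 0.170 CPM, a limit for counting error only. The script was tested on simulated data. Alternatives were DESeq2 1.42.0, another normalization (RLE), other count filters, the replicate block and each retina left out. The methods name DESeq2 on RPKM, which are not counts, so raw counts were used.

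Samples with the same number did not deviate together (correlations -0.234, -0.111 and 0.0784), so the numbers were taken as names. The 37 genes, the role and pathway lists and the marker lists were chosen with earlier results of these data known. Of the 37 genes, values of every retina are given for those with an unadjusted p under 0.05 on all retinas or without Wfs1-KO replicate 2. They are also given for those without overlap between genotypes and for the highest gene per length of each role. Of the pathway lists, up to 3 genes with an unadjusted p under 0.05 on all retinas are named. Pathway genes under 0.05 only without Wfs1-KO replicate 2, or without overlap between genotypes, are not all named. The higher gene of the hypoxia list is not reported here. Vegfa, Flt1, Pgf, Cldn5, Lef1, Mfsd2a and Cldn1 were given in full after their values were seen. Gene positions are from GENCODE M21 (mm10), which held all 37 genes, and promoters are from RefSeq GRCm38.p6.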

Additional observations from a re-analysis of the deposited data

How the results depend on the processing

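With every alternative 0 of the 37 vascular genes passed the adjusted threshold. The 2 genes higher at an unadjusted p under 0.05 became 0 with the replicate block (1.26% of all genes) and 0 to 5 when 1 retina was left out, with 0 without WT replicate 2 (1.17% of all genes), 1 (Vwf) without WT replicate 3 (1.48%), 1 (Vwf) without Wfs1-KO replicate 2 (2.80%) and 5 (Vwf, Plvap, Pgf, Cldn5 and Lef1) without Wfs1-KO replicate 3 (4.47%). Without Wfs1-KO replicate 1 the 2 higher genes were Plvap and Pgf (3.74% of all genes). The 3 genes without overlap between genotypes (8.96% of all genes) became 3 to 9 when 1 retina was left out (15.5% to 22.5% of all genes). Under filters added after seeing the data they became 2 (Vwf and Fzd4) with no filter and 1 (Vwf) with at least 10 counts in every retina. With the replicate block 1 of 18547 genes passed the adjusted threshold, 0 of 3 numbers correlated best with their own, and no other call changed. Of 444 fold changes of the 37 genes under alternatives, 392 kept their direction and 52 reversed, none of a gene past the adjusted threshold, and 18 genes never reversed. On the log2 scale the replicate block gave Emcn -0.015, and at least 10 counts in every retina gave Sox17 0.012. Leaving out 1 retina gave ranges that cross 0 for Vegfb (-0.020 to 0.37), Pgf (-0.047 to 2.31), Kdr (-0.11 to 0.32), Flt4 (-0.19 to 0.15), Pecam1 (-0.043 to 0.18), Cdh5 (-0.42 to 0.12), Tjp1 (-0.45 to 0.17), Eng (-0.088 to 0.31), Emcn (-0.41 to 0.33), Sox17 (-0.30 to 0.16), Sox18 (-0.30 to 0.17), Mfsd2a (-0.50 to 0.58), Slco1a4 (-0.078 to 0.15), Ndp (-0.18 to 0.035), Tspan12 (-0.16 to 0.28), Lrp5 (-0.46 to 0.012), Pdgfb (-0.086 to 0.31), Pdgfrb (-0.037 to 0.097) and Notch3 (-0.085 to 0.20). DESeq2 without Wfs1-KO replicate 2 gave Vegfb -0.021, Pgf -0.051, Flt4 0.16, Pecam1 -0.044, Cdh5 0.12, Tjp1 0.17, Eng -0.089, Emcn -0.41, Sox17 0.15, Sox18 0.018, Mfsd2a -0.50, Tspan12 -0.16, Lrp5 0.012, Pdgfb -0.0072 and Notch3 -0.082. The cause was not tested. The common dispersion was 0.128 on all retinas and 0.0322 without Wfs1-KO replicate 2, and genes near 1 CPM, with 18 to 66 counts in WT for Pgf and Lef1, limit what could be seen.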
